A study of Mus musculus with 12 samples.

Results

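The imprinted Kcnq1, H19-Igf2 and Dlk1-Meg3 domains were examined in a MeDIP-Seq survey of DNA methylation in hippocampi that were taken from adult males of the C57BL/6J strain (C57BL/6 in the labels) at postnatal day 70. Of 9 listed genes, namely Kcnq1, Kcnq1ot1, Cdkn1c, Phlda2, Igf2, H19, Dlk1, Meg3 and Rian, members were all peaks that the files assign to these gene names. This gave 198 of 295704 rows, and 56 of 91177 regions after overlapping peaks of the libraries were merged. Ethanol mice were offspring of dams that drank 10% ethanol by free choice during gestation, in the study until early postnatal life. Stress mice were pups taken from the dam for 3 h per day from postnatal days 2 to 14. Ethanol + stress mice had both exposures, and Control mice had neither. Each group had 2 enriched libraries, each from an individual mouse, and 1 unenriched input library from another mouse of that group, against which both were called. The group and its input therefore cannot be told apart. The blood ethanol of the dams was not measured in the study, and stressed and unstressed pups came from divided litters.

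Imprinted genes are expressed mainly from the copy of a given parent, and each domain is governed by a control region that is methylated in the germ line of either the mother or the father. In the Kcnq1 domain, the promoter of the antisense RNA Kcnq1ot1 is methylated on the maternal copy, and transcription of Kcnq1ot1 on the paternal copy silences Cdkn1c and Phlda2 there. In the H19-Igf2 domain, a region upstream of H19 is methylated on the paternal copy and blocks binding of the insulator protein CTCF, and in the Dlk1-Meg3 domain an intergenic region upstream of Meg3 is methylated on the paternal copy. Zfp57 is a zinc finger protein known to maintain methylation of such regions after fertilisation through the letters TGCCGC.

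MeDIP uses an antibody against 5-methylcytosine. CpG were counted here as letters that can carry this mark, and signal from other cytosines was not told apart. The 300 bases around the summit are shown for the peaks on which the results turn: the Kcnq1ot1 start peak and the nearest peak upstream of Meg3, which lie at the known control regions of their domains, the strongest peak between H19 and Igf2, and the Cdkn1c promoter peak, which both Control libraries lacked. They were read from the plus strand of GRCm38 (mm10), at chr7:143295385-143295684, chr12:109527424-109527723, chr7:142615899-142616198 and chr7:143459832-143460131. Each summit is that of the peak with the highest fold in the merged region. Capitals mark CpG and each match of TGCCGC on either strand.
Kcnq1ot1 start peak: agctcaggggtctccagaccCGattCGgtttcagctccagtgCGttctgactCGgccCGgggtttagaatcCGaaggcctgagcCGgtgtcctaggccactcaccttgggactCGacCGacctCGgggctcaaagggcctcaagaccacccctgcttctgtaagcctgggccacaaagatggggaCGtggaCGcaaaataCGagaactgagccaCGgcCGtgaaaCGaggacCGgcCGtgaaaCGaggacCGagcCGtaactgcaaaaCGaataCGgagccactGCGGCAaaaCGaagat
Dlk1-Meg3 interval peak: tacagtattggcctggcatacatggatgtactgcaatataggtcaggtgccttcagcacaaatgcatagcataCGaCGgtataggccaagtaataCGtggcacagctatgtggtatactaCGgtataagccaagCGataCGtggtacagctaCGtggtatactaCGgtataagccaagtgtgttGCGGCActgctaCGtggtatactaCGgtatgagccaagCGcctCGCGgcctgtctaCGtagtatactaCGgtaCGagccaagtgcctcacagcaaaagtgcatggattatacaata
H19-Igf2 interval peak: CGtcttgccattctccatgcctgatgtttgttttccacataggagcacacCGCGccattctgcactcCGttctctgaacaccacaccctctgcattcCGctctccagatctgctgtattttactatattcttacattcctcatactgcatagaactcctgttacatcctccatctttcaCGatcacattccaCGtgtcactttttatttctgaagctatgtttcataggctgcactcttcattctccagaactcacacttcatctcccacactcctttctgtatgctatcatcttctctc
Cdkn1c promoter peak: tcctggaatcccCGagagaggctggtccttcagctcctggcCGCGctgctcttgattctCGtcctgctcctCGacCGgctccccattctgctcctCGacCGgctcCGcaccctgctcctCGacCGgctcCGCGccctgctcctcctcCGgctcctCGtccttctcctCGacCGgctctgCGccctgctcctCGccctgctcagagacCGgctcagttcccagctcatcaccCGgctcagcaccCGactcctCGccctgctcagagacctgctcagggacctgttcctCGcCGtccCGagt

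The Kcnq1ot1 start window held 25 CpG and the Cdkn1c window held 26, against a median of 4 over the 300-base windows of 91172 merged regions and a median of 8 over the 8901 regions with a peak in all 8 libraries. The window upstream of Meg3 held 17 CpG, and the H19-Igf2 window held 7. TGCCGC occurred 1 time each in the Kcnq1ot1 and Meg3 windows and in neither of the other windows. It occurred in 6.92% of all windows and in 13.2% of the windows of regions with a peak in all 8 libraries, to which both belong. Among the 56 windows of the listed genes, 1 held TGCCGC (1.79%), and the median was 3.5 CpG. Peaks were also found where CpG were few. The region named Dlk1 at chr12:109476368-109478831 held 0 CpG in its window and 3 over its 2464 bp. It had a peak in 7 libraries, with folds between 7.32 and 11.4. Over whole regions, the region upstream of Meg3 (2126 bp) held 8 matches of TGCCGC, a number reached by 0.410% of the 488 merged regions within 10% of its length, and the Kcnq1ot1 start region (1719 bp) held 3, reached by 1.23% of 1305. GGNGGCAG, part of the CTCF site, searched on both strands, occurred in 9 of the 56 windows (16.1%) and in 8.11% of all windows. None of the 4 windows shown held it.

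**Figure D1:**
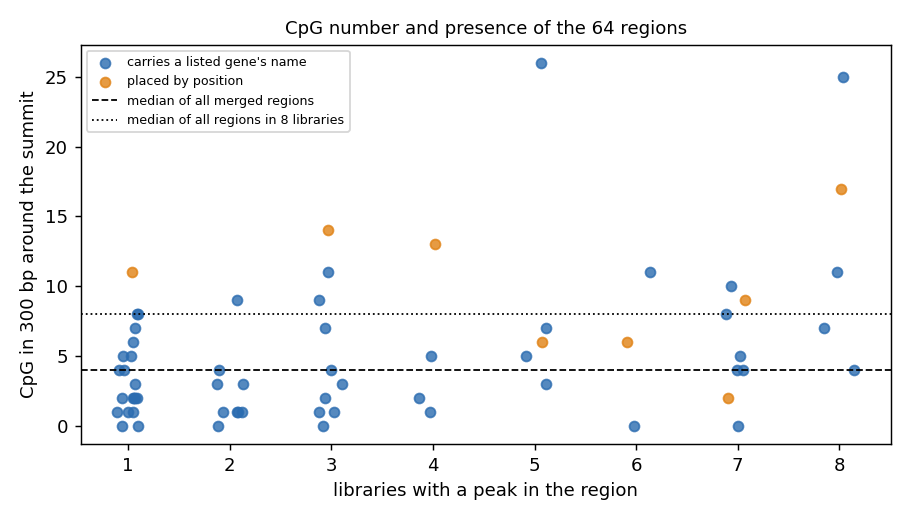
Each point is a merged region; the x axis is the number of enriched libraries with a peak there and the y axis the number of CpG in 300 bp around the summit, for the 56 regions that carry a listed gene's name and the 8 placed by position. The highest values are the Cdkn1c promoter region with 26 CpG and the Kcnq1ot1 start region with 25, against a median of 4 over all merged regions. The Kcnq1ot1 start region had a peak in all 8 libraries. The Cdkn1c region had a peak in 5, not all of which reach the 300 bp counted.

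The peaks were unevenly spread over the 9 genes. Dlk1 had 73 peaks, Cdkn1c 69, Igf2 41, Kcnq1 12 and Phlda2 3 over the 8 libraries. Kcnq1ot1, H19, Meg3 and Rian had 0, because all 14990 transcripts used for annotation were coding and these 4 genes make long noncoding RNAs. Regions at these 4 genes and between Dlk1 and Meg3 were therefore placed by GENCODE M21 coordinates, a step added after the files had been seen. They comprised the Kcnq1ot1 start region, which is named Cdkn1c in the files, and 8 regions named for Mrpl23 or Rtl1. Likewise, 12 of the 20 regions named Cdkn1c lay inside Kcnq1, which spans 320681 bp, so that Kcnq1 held 46 peak summits although only 12 peaks bore its name.

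The files give each peak a class relative to the gene it is named for. By this class, 174 of the 198 rows (87.9%) were intergenic, against 71.5% of all rows. They include the peaks of the 12 regions named Cdkn1c that lay inside Kcnq1, the Kcnq1ot1 start region among them. Shares by position were not computed. Gene bodies had 14 rows (7.07%), against 25.7%, and promoters, defined as 2000 bp on either side of a start site, had 10 rows (5.05%), against 2.80%. The promoter rows belonged to 2 of the 9 genes, Cdkn1c with 6 and Kcnq1 with 4. Among the 56 regions, 4 (7.14%) had a peak in all 8 libraries, against 9.76% of all regions, and 19 (33.9%) had a peak in a single library, against 38.7%.

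**Figure D2:**
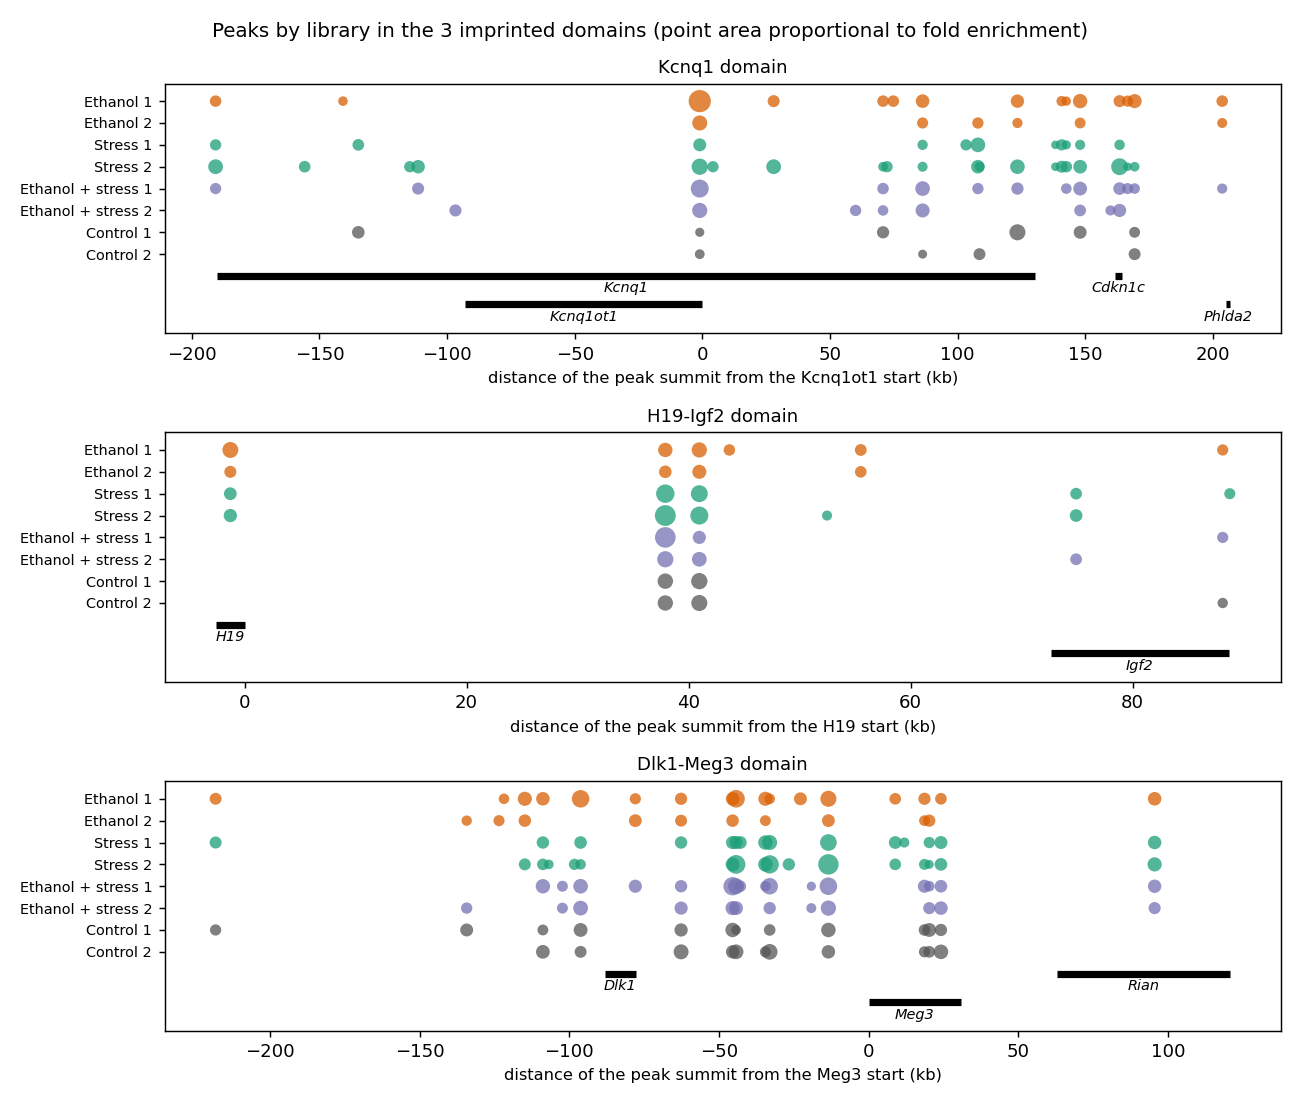
Peak summits by library (rows) against the distance from the start of Kcnq1ot1, H19 or Meg3 in kb, with point area proportional to fold enrichment and black bars for the genes. Peaks present in all 8 libraries stand at the Kcnq1ot1 start, at 2 places between H19 and Igf2, and at 2 places between Dlk1 and Meg3, whereas no library had a peak between H19 and the first region upstream of it.

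The number of peaks differed between libraries, and the number at the 9 genes differed with it. The libraries held 45961 and 22805 peaks in Ethanol, 40187 and 51747 in Stress, 43139 and 36173 in Ethanol + stress, and 27655 and 24017 in Control. Peaks of the 9 genes numbered 33 and 18 in Ethanol, 25 and 36 in Stress, 30 and 21 in Ethanol + stress, and 19 and 16 in Control. Per 10000 peaks of the library this came to between 5.81 and 7.89, with Control at 6.87 and 6.66 inside that range. Peak lists carry no read totals, so sequencing depth is unknown here, and methylation peaks give no check of the dissected tissue by expressed markers.

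Fold enrichment, the summit tag count over the caller's local background from the input, was compared where all 8 libraries had a peak. Of the regions carrying a listed gene's name 4 qualified, and the nearest region upstream of Meg3 was added by position. Values were taken as log2 fold enrichment with the library median over the 8901 such regions subtracted, and tested with limma with Benjamini-Hochberg adjustment over all of them.

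The Kcnq1ot1 start region was the member whose strength differed most between groups. It lay at chr7:143295015-143296733, with its summit 1015 bp downstream of the Kcnq1ot1 start, in an exon of Kcnq1ot1 and an intron of Kcnq1, the gene of a voltage-gated potassium channel. Fold enrichment was 25.3 and 11.6 in Ethanol libraries, 8.62 and 13.6 in Stress libraries, 16.5 and 11.8 in Ethanol + stress libraries, and 4.31 and 4.91 in Control libraries. All 6 treated libraries stood above both Control libraries, also after centring, which held for 7.29% of the 8901 regions. The difference from Control was 1.82 ± 0.30 (SE) on the log2 scale in Ethanol, or 3.52-fold (limma, adjusted p = 0.000539), and 1.44 ± 0.30 in Ethanol + stress, or 2.71-fold (limma, adjusted p = 0.00761). In Stress it was 0.88 ± 0.30, or 1.84-fold, which did not pass the threshold of 0.05 (limma, adjusted p = 0.0875). Among all 8901 regions, this one ranked 4 by size of the increase in Ethanol, 12 in Ethanol + stress and 327 in Stress. These contrasts share the 2 Control libraries.

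Between the 4 ethanol-exposed and the 4 unexposed libraries, the difference at the Kcnq1ot1 start was 1.19 ± 0.21 on the log2 scale, or 2.28-fold (limma, adjusted p = 0.00125), and centred values of the 4 and 4 libraries did not overlap. That was so for 4.83% of the 8901 regions, and the two-sided exact permutation test gave its smallest possible p of 0.0286, with an adjusted p of 0.591 that did not pass. Between the 4 separated and the 4 unseparated libraries it was 0.25 ± 0.21 (limma, adjusted p = 0.593). The interaction, that is the ethanol difference among separated mice minus that among unseparated mice, a contrast added after the data were seen, was -1.26 ± 0.42 and did not pass (limma, adjusted p = 0.112).

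Both parts of the ratio moved at this region. Summit tag counts were 139 and 63 in Ethanol, 67 and 107 in Stress, 102 and 93 in Ethanol + stress, and 42 and 43 in Control. The local background was 5.54 and 5.51 tags in Ethanol, 7.89 and 7.95 in Stress, 6.23 and 7.98 in Ethanol + stress, and 9.98 and 8.97 in Control. It was higher in both Control libraries than in any treated library. The same order of backgrounds was found at 7.64% of the 8901 regions, and at 48.7% of the 649 regions where the fold was higher in all 6 treated libraries. Over all peaks of a library, the 95th percentile of background was 8.54 and 8.86 in Control, below both Control values here. It was 7.95 and 7.98 in Stress, just above the Stress values. The Ethanol values lay near their library medians of 5.54 and 5.49. Ethanol + stress values lay between the median and the 95th percentile of their libraries. The part of the background in the result was not tested. With log2 summit tags in place of fold enrichment, none of the 5 contrasts with Control or between 4 and 4 libraries passed at this region, and the Ethanol difference was 0.94 (limma, adjusted p = 0.998). The Ethanol call was lost without Ethanol replicate 1 (1.62; limma, adjusted p = 0.0611), and the Ethanol + stress call without Ethanol + stress replicate 1 (1.28; limma, adjusted p = 0.0986) or without Control replicate 1 (1.34; limma, adjusted p = 0.0979). Without centring, the Ethanol + stress and ethanol-exposed calls were lost (limma, adjusted p = 0.109 and 0.116) and the Ethanol call was kept (limma, adjusted p = 0.0216).

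**Figure D3:**
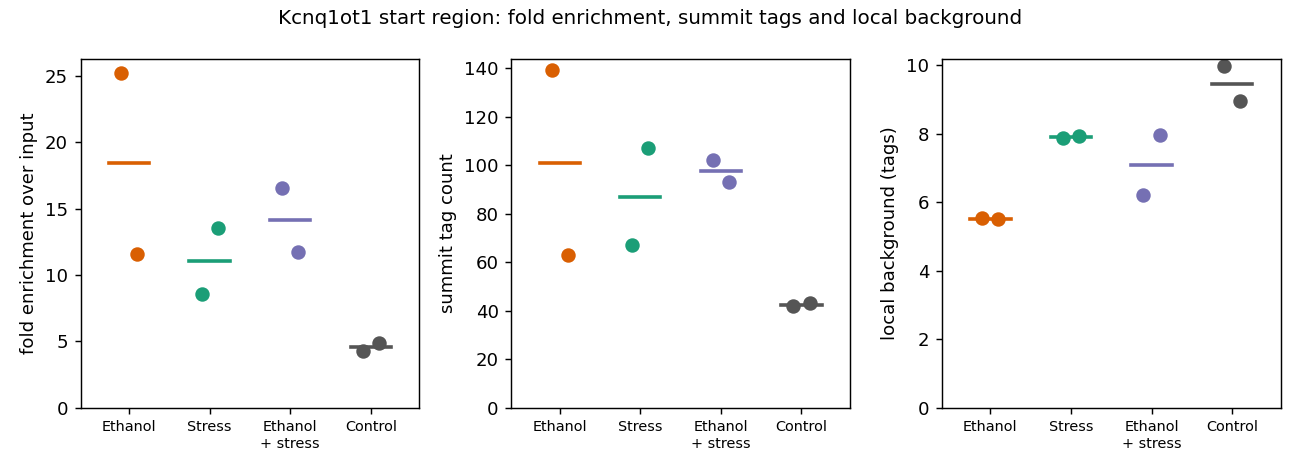
Fold enrichment over input, summit tag count and local background in tags at the Kcnq1ot1 start region, with 1 point per library and a bar at the mean of the 2 libraries of each group. The 6 treated libraries lie between 8.62 and 25.3 in fold enrichment, above Control at 4.31 and 4.91, and below Control in local background.

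Start-site regions of other genes, listed for imprinted domains with a maternally methylated region, were set beside it as a level. Whether each start is itself the methylated site was not checked. Of 17 listed genes, 13 had a promoter region in at least 1 library. Among these, 7 regions of 8 genes had a peak in all 8 libraries, with median fold enrichment between 6.86 and 21.9. The Kcnq1ot1 start had a median of 11.7. At Plagl1, a zinc finger gene of growth control, the difference from Control was 0.95 in Ethanol, 0.76 in Stress and 1.34 in Ethanol + stress, and the last passed (limma, adjusted p = 0.0119). The other 6 regions, at Mest, Peg10, Nnat, Gnas, Inpp5f and the shared Peg3 and Usp29 start, passed in none of the 3 comparisons with Control. All 6 treated libraries were above both Control libraries at 2 of the 7 regions, Plagl1 and Peg10.

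**Figure D4:**
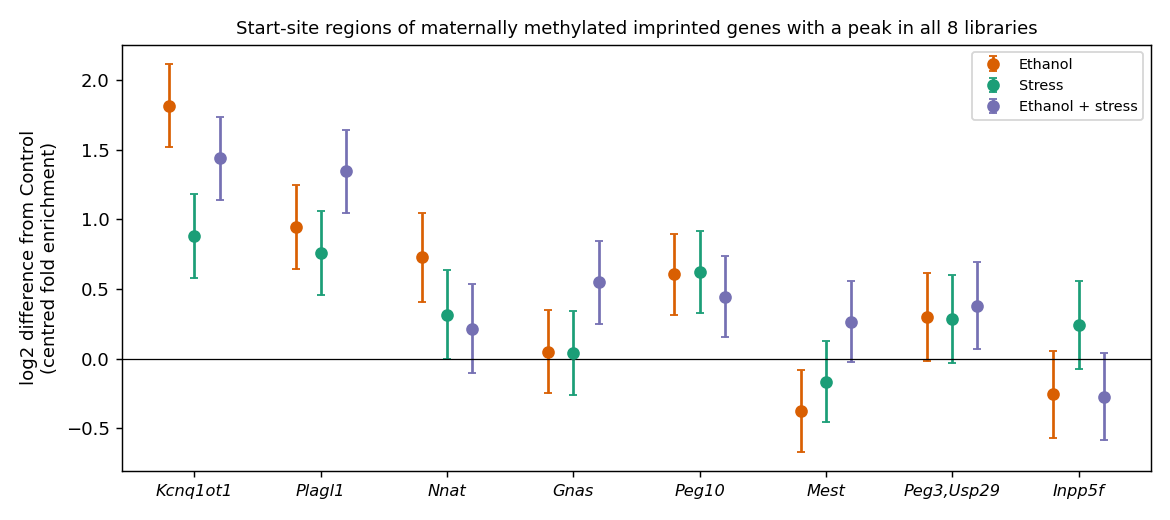
Log2 difference from Control in centred fold enrichment (y axis, point and SE from the limma fit) for Ethanol, Stress and Ethanol + stress. Shown are the Kcnq1ot1 start and 7 start-site regions of other genes listed for domains with a maternally methylated region. The Kcnq1ot1 start is highest in Ethanol at 1.82, and Plagl1 is closest to it in Ethanol + stress at 1.34 against 1.44.

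The H19-Igf2 domain had its strongest peaks away from both genes. H19 is a long noncoding RNA of the maternal copy and Igf2 a fetal growth factor expressed from the paternal copy. The first region, at chr7:142614494-142616915, had its summit at -37905 bp from the H19 start (upstream of it) in an exon of Gm33148. Its fold enrichment was 10.6 and 8.11 in Ethanol, 17.4 and 22.2 in Stress, 21.7 and 13.5 in Ethanol + stress, and 12.2 and 12.03 in Control. The value of Control replicate 2 is from its peak at chr7:142614566-142615270. Its peak at chr7:142615552-142616414, where the other libraries had their highest fold, had 9.50. The 4 separated libraries were above the 4 unseparated ones without overlap after centring, which held in either direction for 5.81% of the 8901 regions, but the difference of 0.57 ± 0.21 did not pass (limma, adjusted p = 0.133). The exact permutation test gave its smallest possible p of 0.0286, two-sided, with an adjusted p of 0.492. The comparisons of Ethanol, Stress and Ethanol + stress with Control gave -0.47, 0.34 and 0.33 on the log2 scale, none past the threshold (limma, adjusted p = 0.560, 0.597 and 0.672).

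The second region, at chr7:142617706-142620621, lay in the same transcript. Its fold enrichment was 11.9 and 10.1 in Ethanol, 14.7 and 16.7 in Stress, 8.86 and 11.1 in Ethanol + stress, and 13.6 and 13.2 in Control. After centring, all 6 treated libraries were below both Control libraries, as at 5.25% of the 8901 regions. These values mix separate peaks of the merged region, since the highest fold per library was used. The value of Ethanol + stress replicate 1 is from the part starting at 142619748. There, folds were 10.6 and 5.25 in Ethanol, 13.3 in Stress replicate 2, 8.86 and 5.71 in Ethanol + stress, and 7.73 and 7.30 in Control. Stress replicate 1 had a single peak over both parts. Differences from Control were -0.37 in Ethanol, -0.13 in Stress and -0.60 in Ethanol + stress, and none passed (limma, adjusted p = 0.685, 0.865 and 0.335).

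No library had a peak from 2000 to 4000 bp upstream of the H19 start, where the control region of the domain is known to lie, or anywhere in the 37200 bp between the H19 region and the first region upstream. Inside H19, a region at chr7:142576637-142577293 had its summit in an exon, 1286 bp from the start, with 13 CpG in its window. It was present in both Ethanol libraries (13.01 and 7.45) and both Stress libraries (8.35 and 9.06), and absent from both Ethanol + stress and both Control libraries.

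In the Dlk1-Meg3 domain, Dlk1 encodes a membrane protein of the paternal copy related to Notch ligands, and Meg3 and Rian are noncoding RNAs of the maternal copy. The nearest region upstream of Meg3, at chr12:109526433-109528558, had its summit at -13428 bp from the Meg3 start. Fold enrichment was 13.2 and 8.39 in Ethanol, 14.2 and 21.3 in Stress, 15.8 and 11.9 in Ethanol + stress, and 10.7 and 9.35 in Control. The 4 separated libraries were above the 4 unseparated ones without overlap after centring, against 5.81% of the 8901 regions in either direction, with a difference of 0.37 ± 0.21 that did not pass (limma, adjusted p = 0.370). The two-sided exact permutation test gave its smallest possible p of 0.0286, with an adjusted p of 0.492. Differences from Control were -0.01 in Ethanol, 0.45 in Stress and 0.29 in Ethanol + stress (limma, adjusted p = 0.996, 0.453 and 0.716).

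The other region in all 8 libraries, at chr12:109495022-109496020, lay 42730 bp downstream of the Dlk1 start in an intron of Gm34081. Its fold enrichment was 9.38 and 8.04 in Ethanol, 8.80 and 9.91 in Stress, 17.2 and 10.3 in Ethanol + stress, and 10.7 and 9.08 in Control. Before centring, both Ethanol + stress libraries were above both Ethanol and both Stress libraries. After centring this no longer held, with Ethanol + stress replicate 2 at -0.1212 and Ethanol replicate 2 at -0.1201. The 4 and 4 libraries overlapped by separation and by ethanol after centring, and no contrast passed. Of the 20 regions named Dlk1, 10 lay upstream of the gene, 1 inside it and 9 past its end, 6 of these in Gm34081. None of the 8 libraries had a peak within 2000 bp of the start of Dlk1, Meg3 or Rian. Meg3 held 5 regions. They comprised 3 in exons with peaks in 6, 7 and 7 libraries, and 2 in introns with peaks in 3 and 1.

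**Figure D5:**
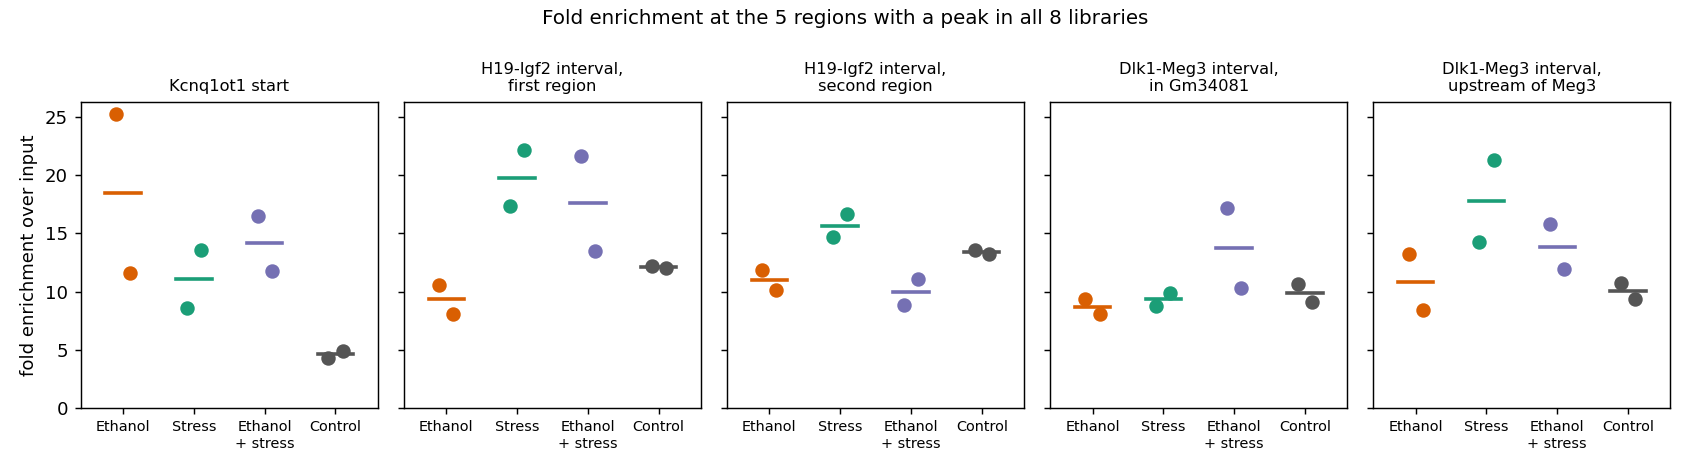
Fold enrichment over input (y axis) at the 5 regions with a peak in all 8 libraries, with 1 point per library and a bar at the mean of the 2 libraries of each group. Treated libraries stand clear of Control at the Kcnq1ot1 start, whereas at the other 4 regions at least 1 treated library lies at or below Control.

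Across the 5 regions, 1 was called in Ethanol against 1.17% of all 8901 regions, 0 in Stress against 3.58%, and 1 in Ethanol + stress against 2.29%. For separated against unseparated mice 0 of 5 were called, against 2.51%, for ethanol-exposed against unexposed mice 1 of 5, against 1.35%, and for the interaction 0 of 5, against 1.94%. Each call was at the Kcnq1ot1 start. The median log2 difference of the 5 regions was -0.26 in Ethanol, 0.34 in Stress and 0.29 in Ethanol + stress, and over all regions it was -0.01, 0.00 and -0.02.

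Presence of peaks was compared next. A region was counted as gained where a peak was found in both libraries of the treatment and in no Control library, and as lost in the opposite case. These comparisons of 2 against 2 libraries were not tested, since a permutation of 2 against 2 allows no p below 0.333. Between 4 and 4 libraries, 0 of the 56 regions had a peak in all 4 separated and no unseparated library, and 0 in all 4 ethanol-exposed and no unexposed library, against 370 and 76 of all 91177 regions. Of the 56 regions, 4 (7.14%) were gained in Ethanol, 7 (12.5%) in Stress and 3 (5.36%) in Ethanol + stress, against 2.82%, 8.93% and 5.54% of all merged regions. None was lost, against 0.93% in Ethanol, 0.847% in Stress and 0.656% in Ethanol + stress. The Control lists were among the 3 shortest. When each list was shortened to its strongest 22805 peaks, the members gained were 2 in Ethanol, 1 in Stress and 2 in Ethanol + stress, against 2.15%, 3.70% and 2.71% of 54483 regions. Members lost were then 1 in Ethanol, 1 in Stress and 0 in Ethanol + stress, against 3.00%, 3.53% and 2.60%.

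At Cdkn1c, a cyclin-dependent kinase inhibitor of the maternal copy, the promoter region was gained in Stress and in Ethanol + stress. It lay at chr7:143459493-143461116 with its summit in an exon, 1069 bp from the start, and held 168 CpG over its 1624 bp. Fold enrichment was 7.39 in Ethanol replicate 1, with no peak in the other Ethanol library, 5.64 and 14.6 in Stress, and 8.16 and 8.89 in Ethanol + stress, with no peak in either Control library. Stress had 4 further gained regions named Cdkn1c. These lay between 21929 and 56564 bp downstream of its start, 1 in a Kcnq1 intron (11.1 and 9.49) and 3 between Kcnq1 and Cdkn1c (3.70 and 3.82, 6.54 and 7.38, and 4.32 and 6.78). All but the weakest of these also had a peak in at least 1 Ethanol library.

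The Kcnq1 promoter region, at chr7:143105666-143106302 with its summit at -461 bp from the start, was gained in Stress with folds of 6.54 and 11.2. It was also present in Ethanol replicate 1 (6.76) and Ethanol + stress replicate 1 (6.48), and held 2 CpG in its window. At Phlda2, which encodes a pleckstrin homology protein that limits placental growth, the only region lay downstream of the gene, 2970 bp from the start. It was gained in Ethanol with folds of 6.87 and 5.18, and was present in Ethanol + stress replicate 1 (5.33).

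At Igf2, a region in an exon at chr7:142652707-142653351 was gained in Stress (6.99 and 8.22) and present in Ethanol + stress replicate 2 (7.06), and a region 33156 bp downstream of the start was gained in Ethanol (7.17 and 6.91). Near the GENCODE start of Igf2, 4 libraries had a peak within 2000 bp, namely Ethanol replicate 1 (6.46), Stress replicate 1 (6.29), Ethanol + stress replicate 1 (6.43) and Control replicate 2 (5.52). The files place the Igf2 start 5781 or 9335 bp further into the gene, so these peaks were not classed as promoter.

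At Dlk1, an exon region at chr12:109462830-109463339, 10224 bp past the start, was gained in Ethanol (6.45 and 8.40) and present in Ethanol + stress replicate 1 (8.86). A region at -26707 bp from the start was also gained in Ethanol (10.2 and 8.04) and present in Stress replicate 2 (7.38). Regions at -14137 bp from the Dlk1 start (6.08 and 6.14) and at -19135 bp from the Meg3 start (4.34 and 5.09) were gained in Ethanol + stress and found in no other group. By position, a Meg3 intron region was gained in Stress (8.35 and 6.95), and a Rian intron region in Stress (9.25 and 10.3) and Ethanol + stress (9.21 and 7.51). Ethanol replicate 1 also had a peak in both (6.87 in Meg3 and 9.45 in Rian).

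The number of peaks per gene did not separate the groups at any of the 4 genes with enough peaks to be tested. Cdkn1c averaged 10.8 ± 3.86 peaks in separated mice and 6.5 ± 3.70 in unseparated mice (SD, n = 4 each; exact permutation test, two-sided, p = 0.2, adjusted p = 0.779). Kcnq1 averaged 2.25 ± 1.26 peaks in separated mice and 0.750 ± 0.957 in unseparated mice (exact permutation test, adjusted p = 0.779), and Dlk1 averaged 9.5 ± 1.29 in separated mice and 8.75 ± 2.36 in unseparated mice (exact permutation test, adjusted p = 1). Igf2 averaged 5.25 ± 0.5 in separated mice and 5 ± 0.816 in unseparated mice. For ethanol-exposed against unexposed mice, Cdkn1c averaged 8.75 ± 3.30 peaks in exposed mice and 8.5 ± 5.45 in unexposed mice, and adjusted p was 1 at each of the 4 genes. Counts were higher without overlap at 0 of the 4 genes in both comparisons, against 2.45% of 8382 genes in separated mice and 0.119% in ethanol-exposed mice. No gene passed with adjustment over all genes by the exact test, and 206 and 11 genes had an unadjusted p under 0.05. Without Ethanol replicate 1, Cdkn1c was higher without overlap in separated mice, as were 18.8% of all 8382 genes. Per 10000 peaks, Dlk1 was lower without overlap in separated mice, as were 2.22% of genes.

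Of 24 listed neighbours of the domains, 16 had peaks, in 154 regions of which 17 were present in all 8 libraries. By name in the files, the most belonged to Dio3, the thyroid hormone deiodinase gene at the far end of the Dlk1-Meg3 domain (132 peaks). Next were the retrotransposon-like gene Rtl1 (120), Wdr25 (75) and Begain (60). The 154 regions include the 8 named Rtl1 or Mrpl23 that were placed by position at H19, Meg3, Rian or upstream of Meg3. The region upstream of Meg3 is also among the 17. Gained and lost regions of the neighbours numbered 4 and 3 in Ethanol, 15 and 1 in Stress, and 11 and 2 in Ethanol + stress. The gained shares were 2.60%, 9.74% and 7.14%, against 2.82%, 8.93% and 5.54% of all regions, and the lost shares 1.95%, 0.649% and 1.3%, against 0.93%, 0.847% and 0.656%. In strength, 2 of the 17 regions rose (Dio3 and Wdr25) and 1 fell (Dio3) in Stress, 1 rose in Ethanol + stress (Rtl1), and none passed in Ethanol, against 3.58%, 2.29% and 1.17% of all 8901 regions in Stress, Ethanol + stress and Ethanol. None of the 10 neighbours with enough peaks was without overlap between 4 and 4 libraries in number of peaks.

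For the strongest region of each domain, the 3 regions elsewhere in the genome with the most similar pattern over the 8 libraries were listed, as a description. The Kcnq1ot1 start was closest to regions named Dok5 (Pearson r = 0.978), Suclg2 (0.972) and Sgk1 (0.968). The first H19-Igf2 region was closest to Zfp64 (0.970), C87414 (0.961) and Mb21d2 (0.955), and the region upstream of Meg3 to Spata16 (0.977), Man1a (0.957) and Vmn1r237 (0.956). These points share libraries and inputs.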

How the data were processed

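Immunoprecipitated and input DNA of individual mice was sequenced by the study. Reads were aligned to mm10 with HISAT2 2.1.0, named in the submitters' processing notes, and peaks of each enriched library were called by the authors with MACS, using the input of the same group, and annotated to the nearest coding RefSeq transcript. The deposited peak lists give the fold enrichment over input (a ratio), the q-value as −log10, and a summit tag count, here treated as a score. Distances of summits from start sites, in bp, were also deposited by the authors. The lowest deposited −log10 q was 5.03.

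Peaks sharing at least 1 bp across libraries were merged, and where a library had several peaks in a region the highest fold was used. Local background was computed as summit tags plus 1 over the fold. Strength at the 8901 regions in all 8 libraries was tested with limma 3.58.1 in R 4.3.3 on log2 fold, centred on the library median, with group as the factor. Centring matters, since library medians lay between 8.74 and 15.4. For genes with at least 8 peaks, the number of peaks per library was tested by exact permutation of 4 against 4 libraries, two-sided, in Python 3.11.15. Benjamini-Hochberg adjustment ran over all regions or genes. Both steps were tested on simulated data. All 9 genes are named, and regions are described where called in all 8 libraries, gained, lost or within 2000 bp of a start. The members and lists were chosen with earlier results of these data known. All peaks lay within the chromosome lengths of GRCm38.p6, from which sequences were read, and gene positions came from GENCODE M21. Replicates were different mice, and nothing gives their litters. Alternatives were an equal number of peaks, a −log10 q of at least 10, a stricter overlap of 50% of the shorter peak, other measures of strength, a replicate block, other promoter windows, and each library left out. Differential calls of the study were not used here.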

Additional observations from a re-analysis of the deposited data

How the results depend on the processing

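Of 421 alternatives at named results, 387 left the result the same, 10 lost a call and 1 gained it, and 23 turned direction. For peaks per gene only the direction was compared, and most other named results had no call that could be lost. All 10 losses fell on the calls at the Kcnq1ot1 start in Ethanol, Ethanol + stress and ethanol-exposed, the only named results with a call. Member regions gained or lost with an equal number of peaks per library were 2 and 1 in Ethanol, 1 and 1 in Stress, and 2 and 0 in Ethanol + stress. Leaving out a library gave 6 to 15 gained and 0 to 5 lost in Ethanol, 8 to 19 and 1 to 1 in Stress, and 4 to 11 and 0 to 2 in Ethanol + stress. Over all regions these settings gave 4.66% to 22.6% gained and 1.31% to 6.44% lost in Ethanol, 12.6% to 29.8% and 1.64% to 5.34% in Stress, and 8.84% to 20.2% and 1.43% to 5.68% in Ethanol + stress. Genes with a promoter peak numbered 1 within 1000 bp and 4 within 5000 bp.

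Regions called by limma (104 in Ethanol, 319 in Stress, 204 in Ethanol + stress, 223 separated, 120 ethanol-exposed) were 7, 148, 6, 52 and 7 without centring, and 2, 4, 1, 0 and 0 with summit tags. With percentiles of fold they were 84 in Ethanol, 70 in Stress, 108 in Ethanol + stress, and 0 in both 4 against 4 comparisons, where the exact permutation test also called 0 (517 separated and 430 ethanol-exposed at an unadjusted p under 0.05). With a library left out they ranged from 9 to 113 in Ethanol, 19 to 360 in Stress, 27 to 224 in Ethanol + stress, 71 to 216 separated and 52 to 82 ethanol-exposed.

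With the replicate block the counts were 86, 268, 174, 178 and 103, and no call at the 5 member regions changed. Within each group, replicate 1 minus replicate 2 was taken in centred log2 fold at the 8901 regions, and these differences were correlated between groups. Their correlation was -0.04, -0.05 and -0.07 between Control and Ethanol, Stress and Ethanol + stress. It was -0.10 between Stress and Ethanol, 0.14 between Ethanol + stress and Ethanol, and -0.02 between Ethanol + stress and Stress. Since not every pair was over 0.1, replicate numbers were taken as names only.

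At the Kcnq1ot1 start the Ethanol + stress difference was 1.60 without centring (limma, adjusted p = 0.109) and 0.81 with summit tags (limma, adjusted p = 0.915). The ethanol-exposed difference was 1.13 without centring (limma, adjusted p = 0.116), 0.55 with summit tags (limma, adjusted p = 0.999), 53.9 percentile points (limma, adjusted p = 0.0757), and 1.19 by the exact permutation test (adjusted p = 0.591). In Stress it was 62.6 percentile points, which passed (limma, adjusted p = 0.0384). With a library left out the differences ranged from 1.62 to 2.01 in Ethanol, 0.73 to 1.03 in Stress, 1.28 to 1.59 in Ethanol + stress, and 1.09 to 1.29 for ethanol-exposed (limma, adjusted p = 0.00345 to 0.0187).

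Direction turned only at values that had not passed. Without centring, the second H19-Igf2 region gave 0.22 in Stress and 0.040 separated, and the region upstream of Meg3 gave 0.076 in Ethanol. In percentiles, the region upstream of Meg3 gave 2.12 in Ethanol and 0.276 for ethanol-exposed. With a library left out, the Gm34081 region ranged from -0.010 to 0.55 in Ethanol + stress and -0.089 to 0.19 separated, and the region upstream of Meg3 from -0.097 to 0.087 in Ethanol. Peaks per gene, separated against unseparated, differed by -0.50 at Igf2 and -0.75 at Dlk1 with an equal number of peaks, and by -0.52 and -0.73 per 10000 peaks. With a library left out they ranged from -0.083 to 0.58 at Igf2. For ethanol-exposed mice the ranges were -1.08 to 0.25 at Kcnq1, -1.25 to 2.75 at Cdkn1c, -0.083 to 0.58 at Igf2 and -0.083 to 1.58 at Dlk1. Genes without overlap in number of peaks numbered 1 (Dlk1) per 10000 peaks, and 0 to 1 with a library left out. The cause was not tested.

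With 2 libraries per group and 1 input each, small differences could not be seen.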
